A study of Saccharomyces cerevisiae with 40 samples.

Results

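The mitochondrial genome of yeast encodes a small set of membrane proteins of the respiratory chain, and 5 of them were followed here, *COX1*, *ATP8*, *ATP6*, *COB* and *OLI1*. They were taken by name as rows of the expression table, and the rows of the mitochondrial introns were kept apart. All 5 had a value on every array, out of 4388 rows in the table. The arrays covered 59A, a haploid (MATa, ho) derivative of the commercial wine yeast EC1118, the laboratory strain S288C, and haploid segregants of the cross between them. RNA was taken when 50% of the fermentation was done, at 45 g of released CO2, from cultures in the synthetic must MS300 at 28 °C under airlocks. There were 5 independent cultures of 59A, 5 of S288C and 1 culture of each of 30 segregants, which came from 21 asci. Each value is the log2 ratio of a culture to a pool of RNA of the 30 segregants, so that 0 is the level of the pool and a difference of 1 is a doubling or a halving.

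The respiratory chain passes electrons along large complexes of the inner mitochondrial membrane, and the ATP synthase uses the proton gradient that they build. In these complexes a few core proteins are encoded and translated inside the mitochondrion, and their partners are encoded in the nucleus and imported. *COX1* encodes the catalytic core subunit of cytochrome c oxidase (complex IV), and *COB* encodes cytochrome b of complex III. *ATP6*, *ATP8* and *OLI1* encode subunits of the membrane part of the ATP synthase, with *OLI1* giving the subunit of its rotating ring. *COX1*, *ATP8* and *ATP6* lie next to each other in this order in the RefSeq annotation and are known to be transcribed together, whereas *COB* and *OLI1* start from promoters of their own. In anaerobic fermentation on sugar, yeast obtains its ATP from glycolysis, and its respiratory genes are known to be held low by glucose.

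The table carries 53 missing values, none of them in the 5 genes. Array medians lay between -0.026 and 0.028, and the values of any array ended at -2.32 and 2.09, a bound left by the quantile normalization. The direction of the ratio, culture over pool, was read from the 4 *ASP3* genes, which the wine strain lacks, at -0.73 to -0.46 in the 59A cultures and 0.37 to 0.72 in the S288C cultures. Replicate cultures correlated over all rows at r = 0.85 to 0.96 in 59A and 0.82 to 0.93 in S288C. Arrays of different segregants, all set against the pool made from them and with the same dyes on every array, correlated at r = -0.44 to 0.86. Each segregant was measured in 1 culture, so that its own error is unknown.

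Between the parents, *ATP6* was the single gene of the 5 that passed the test, with a lower level in 59A. *COX1* and *COB*, the core subunits of the oxidase and of complex III, and the other 2 ATP synthase genes did not pass it. The count of 1 in 5 stands beside 30.8% of all rows that passed the same test (limma, Benjamini-Hochberg adjusted p under 0.01), and beside 13.7% of all rows that passed it with a lower level in 59A.

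The 59A cultures had *ATP6* at -0.32, -0.34, -0.18, -0.32 and 0.33, and the S288C cultures had it at 0.20, 0.58, 0.62, 0.37 and 0.18. All cultures of 59A but the fifth lay below every culture of S288C, and the fifth lay inside the S288C range. The mean was -0.16 ± 0.29 in 59A and 0.39 ± 0.21 in S288C (SD, n = 5 each), a difference of -0.55 (standard error 0.13), or 0.68-fold in 59A. The limma adjusted p was 0.0045, and an exact two-sided permutation test over the 252 groupings of the 10 arrays gave p = 0.024, where the smallest it can give is 0.0079. The call was close to the threshold, and was lost under Benjamini-Yekutieli adjustment (limma adjusted p = 0.041) and in the methods' t-test (adjusted p = 0.023). Leaving out 1 culture gave adjusted p-values of 0.013 without S288C culture 2 and without S288C culture 3, 0.014 without 59A culture 1, 59A culture 2 or 59A culture 4, and 0.011 without 59A culture 3. The other 4 omissions kept it, with the lowest value, 0.00013, without 59A culture 5.

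The *COX1* level did not separate the strains. It was 0.02, 0.03, 0.43, 0.28 and 0.64 in the 59A cultures, and 0.09, 0.36, 0.02, 0.42 and 0.43 in the S288C cultures. The S288C cultures lay inside the range of the 59A cultures, which spanned 0.61 in 59A and 0.41 in S288C. The means were 0.28 ± 0.26 in 59A and 0.27 ± 0.19 in S288C, a difference of 0.01 (standard error 0.12, limma adjusted p = 0.95, exact permutation p = 0.93), and its sign turned when single cultures were left out.

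For *ATP8* the 59A cultures had 0.11, 0.17, 0.58, 0.13 and 0.99, and the S288C cultures had 0.31, 0.95, 0.41, 0.86 and 0.73. Of the 59A cultures, 3 lay below all S288C cultures and 1 above them. The means were 0.40 ± 0.38 in 59A and 0.65 ± 0.28 in S288C, a difference of -0.25 (standard error 0.18, limma adjusted p = 0.26, exact permutation p = 0.25). Both strains were thus above the segregant pool for this gene by more than for any of the other 4.

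*COB* was at -0.35, -0.23, -0.13, -0.24 and 0.09 in the 59A cultures, and at -0.15, 0.46, -0.08, 0.00 and -0.05 in the S288C cultures. The second S288C culture lay apart from the other 4. The means were -0.17 ± 0.16 in 59A and 0.04 ± 0.24 in S288C, a difference of -0.21 (standard error 0.11, limma adjusted p = 0.14, exact permutation p = 0.13). *OLI1* was at -0.12, -0.08, 0.28, 0.02 and 0.78 in the 59A cultures, and at -0.10, 0.11, -0.14, -0.22 and -0.07 in the S288C cultures. Here the cultures of 59A reached higher, with an overlap at the low end. The means were 0.18 ± 0.37 in 59A and -0.08 ± 0.12 in S288C, a difference of 0.26 (standard error 0.15, limma adjusted p = 0.17, exact permutation p = 0.18). The fifth culture of 59A was the highest 59A culture in each of the 5 genes.

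**Figure D1:**
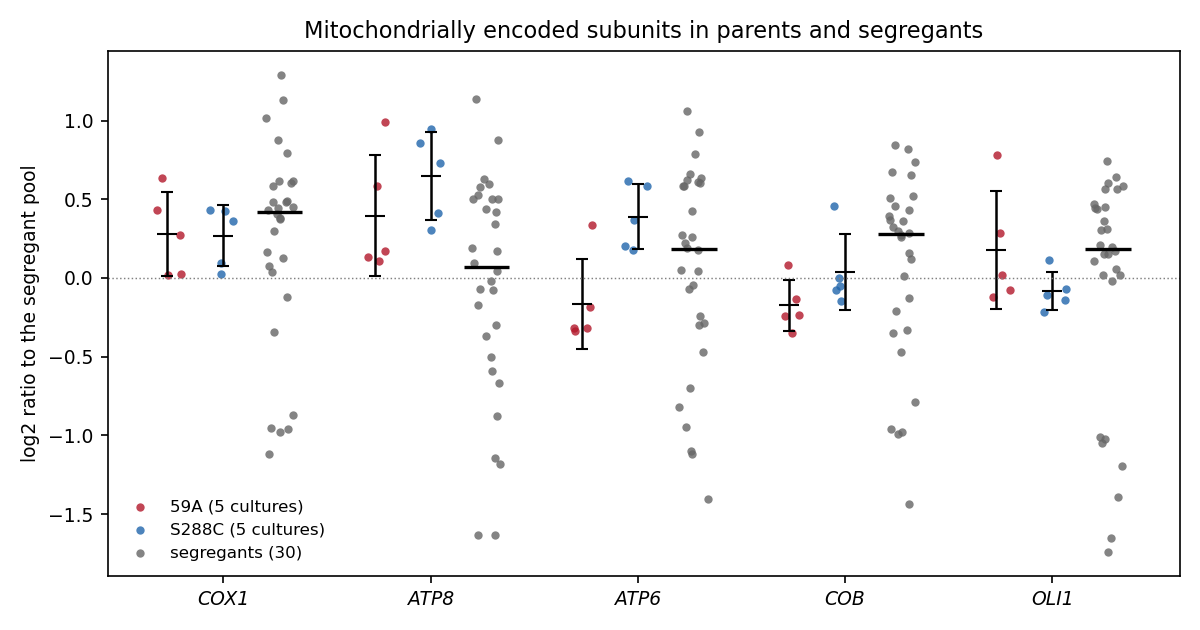
Log2 ratio to the segregant pool (vertical axis) of the 5 mitochondrial genes in 59A, S288C and the segregants; points are cultures, bars are the mean and SD of 5 cultures for the parents, and the thick line is the median of the 30 segregants. Parental values overlap in all 5 genes, and segregants reach below every parental culture in each of them, down to -1.74 in *OLI1*.

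Over the segregants the 5 genes spread far more widely than between the parental strains. *COX1* ran from -1.12 in segregant 19c to 1.29 in segregant 18c, with a median of 0.42. *ATP8* ran from -1.63 in segregant 4c to 1.14 in segregant 20b, with a median of 0.07. *ATP6* ran from -1.40 in segregant 19c to 1.06 in segregant 20b, with a median of 0.18. These ranges amount to 5.30-fold, 6.83-fold and 5.51-fold. *COB* ran from -1.43 in segregant 5a to 0.85 in segregant 18c, with a median of 0.28. *OLI1* ran from -1.74 in segregant 28b to 0.74 in segregant 24a, with a median of 0.18. Their ranges were 4.86-fold and 5.58-fold.

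The SD over segregants was 0.65 for *COX1*, 0.71 for *ATP8*, 0.66 for *ATP6*, 0.60 for *COB* and 0.74 for *OLI1*, against a median of 0.29 over all rows. Between 2.99% and 5.47% of all rows had a larger SD. The same genes also varied more between replicate cultures, with a pooled SD within the parents of 0.21 to 0.34 against a median of 0.11 over all rows. The ratio of the SD over segregants to the SD within parents was 2.12 to 2.92, which is near the median ratio of all rows, 2.69. Between 43.0% and 69.2% of all rows had a larger ratio.

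Segregants lay below the parental range in all 5 genes, and above it in all but *OLI1*. For *ATP8*, 16 of 30 segregants lay below the lowest parental culture and 1 above the highest. For the other 4 genes, 6 or 7 segregants lay below all parental cultures. Above them lay 5 segregants for *COX1*, 6 for *ATP6*, 8 for *COB* and none for *OLI1*. Such counts are not given for all rows, so they are not read as particular to these genes.

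The low end was made up of the same few strains in most genes. In segregants 5a, 14a, 19c, 20a and 28b all 5 genes were below -0.3. Segregant 19c had -1.12 for *COX1*, -1.15 for *ATP8*, -1.40 for *ATP6*, -0.98 for *COB* and -1.39 for *OLI1*. Segregant 20a had -0.87, -1.18, -0.95, -0.96 and -1.65 in the same order of genes. Segregant 28b had -0.98, -0.67, -1.12, -0.99 and -1.74, so that each of these 3 strains was low throughout, with *OLI1* the lowest in segregants 20a and 28b. Segregant 5a had -0.96, -1.63, -0.82, -1.43 and -1.02, with *ATP8* and *COB* lowest. Segregant 14a had -0.95, -0.88, -0.70, -0.33 and -1.19. On the arrays of these 5 strains each of the 5 genes stood low among all rows, with 0.114% to 19.6% of the rows below it. Each value is an average over a culture, so that fewer cells with these transcripts and less of them in every cell cannot be told apart.

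Other strains were low for some of the genes only. Segregant 4c had *ATP8* at -1.63, *ATP6* at -1.10 and *COB* at -0.79, with *COX1* at -0.34 and *OLI1* at 0.20. Segregants 14b and 31b had *OLI1* at -1.05 and -1.01, with *COX1* at 0.04 and 0.16. In segregant 14b *ATP8* was at -0.37, *ATP6* at -0.24 and *COB* at -0.47. In segregant 31b *ATP8* was at 0.50, in the upper part of its range. All 5 genes were above the pool in 14 segregants, below it in 5 and on both sides in 11.

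*OLI1* was the gene whose values fell into separate sets. No segregant lay between -1.01 and -0.02, a gap that takes 39.9% of its range, with 7 segregants below it (5a, 14a, 14b, 19c, 20a, 28b and 31b) and 23 above. In the other 4 genes the largest gap took 11.7% to 22.0% of the range, and for *COX1* it set the 5 strains low in all genes apart from the other 25. Because of the gap no correlation over all 30 segregants is given for *OLI1*, and its relations are given within each set. This division was chosen after the values were seen.

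**Figure D2:**
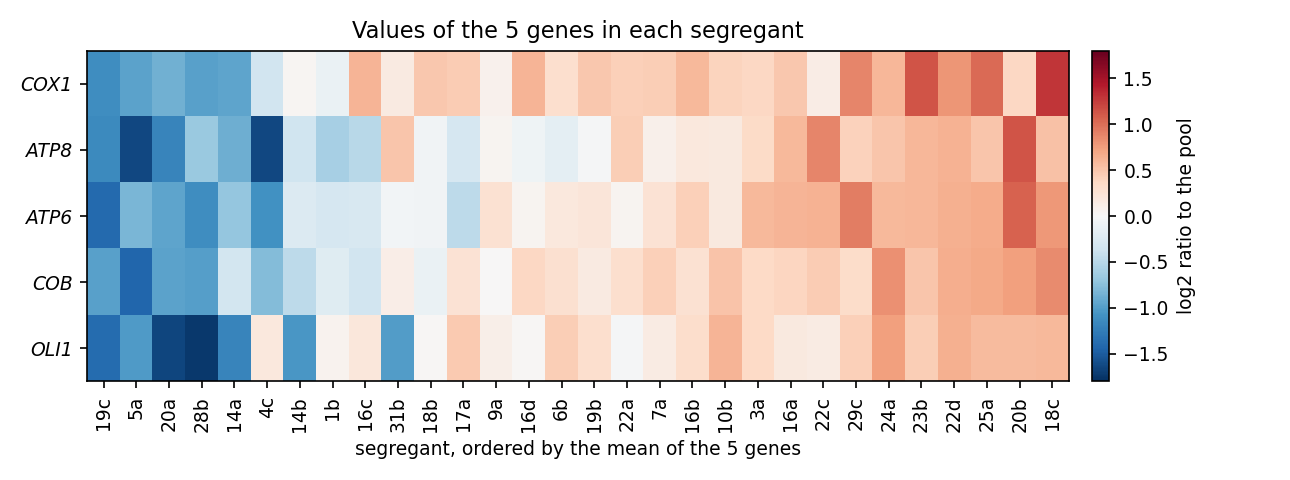
Log2 ratio to the pool (colour) of the 5 genes (rows) in each of the 30 segregants (columns), ordered by the mean of the 5 values. The 5 strains at the left are low in every gene, segregant 4c is low except in *OLI1*, and segregants 14b and 31b are low in *OLI1* with *COX1* near or above the pool.

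Sister spores of 1 ascus could lie at opposite ends. In ascus 20, *OLI1* was at -1.65 in one spore and 0.56 in the other, and *ATP8* at -1.18 and 1.14. In ascus 19, *COX1* was at -1.12 and 0.48, and *ATP6* at -1.40 and 0.22. In ascus 14, both spores were low in *OLI1*, at -1.19 and -1.05, whereas *COX1* was at -0.95 in one and 0.04 in the other. The 4 spores of ascus 16 had *COX1* within 0.13 of each other, with *ATP8* between -0.50 and 0.58. Sister spores were thus alike or far apart depending on the ascus and the gene.

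*ATP8* and *ATP6* of the ATP synthase and *COB* of complex III varied together over the segregants, and *COX1* followed them less closely. The genes also varied together between replicate cultures of the parents. Deviations of the 10 parental cultures from their strain means correlated at r = 0.46 (*COX1* with *ATP6*) to 0.90 (*COX1* with *ATP8*) over the 10 pairs. The co-variation is therefore not one of segregants alone, and no such values are given for all rows. For the 6 pairs without *OLI1*, Spearman's rho over the 30 segregants was between 0.64 and 0.91. All 6 passed a rho of 0.6 and an adjusted p of 0.05 (Benjamini-Hochberg over all 9585631 pairs of rows), as did 3.52% of all pairs, whose median rho was -0.0073. *ATP8* and *ATP6* had rho = 0.91 (r = 0.91), *ATP8* and *COB* rho = 0.87 (r = 0.90), and *ATP6* and *COB* rho = 0.87 (r = 0.90). For these 3 pairs, at most 0.0776% of all pairs had a higher rho. Permutation tests gave p = 1e-05 for each rho and r, the smallest that 100000 permutations can give, and r was 0.91, 0.88 and 0.87 without the 2 segregants farthest from the median of the first gene. With *COX1*, rho was 0.64 (r = 0.77) for *ATP8*, 0.70 (r = 0.84) for *ATP6* and 0.72 (r = 0.86) for *COB*. Their permutation p-values were 0.00025, 1e-05 and 4e-05 for rho and 1e-05 for each r, and r fell to 0.74, 0.77 and 0.81 without segregants 19c and 28b. The call of *COX1* with *ATP8* was lost without segregant 1b (rho = 0.597), and also when segregants 19c and 28b were left out together. Within the common transcription unit, *ATP8* and *ATP6* had the highest rho of the 6 pairs and neighbouring *COX1* and *ATP8* the lowest. *ATP8* and *COB*, in different units, had one of the highest. Whether shared transcription bears on these values was not tested.

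Within the 23 segregants above the *OLI1* gap, 4 of the 10 pairs passed, against 3.61% of all pairs. *ATP8* and *ATP6* kept rho = 0.88 (r = 0.92), *ATP8* and *COB* rho = 0.82 (r = 0.87), and *ATP6* and *COB* rho = 0.75 (r = 0.83), with permutation p-values of at most 8e-05. *COB* and *OLI1* had rho = 0.63 (p = 0.0016, adjusted p = 0.029) and r = 0.62 (p = 0.0011), which was 0.74 without segregants 4c and 16c. This call was lost, at rho = 0.58 to 0.59, without any 1 of segregants 10b, 18c, 20b, 22d, 23b, 24a and 25a. The 3 pairs of *COX1* with *ATP8*, *ATP6* and *COB* had rho = 0.36, 0.42 and 0.44 (adjusted p = 0.32, 0.21 and 0.18; r = 0.55, 0.60 and 0.65, and 0.31, 0.37 and 0.40 without segregants 4c and 18c), so that their calls over 30 segregants were lost without the 7 strains below the gap. *OLI1* had rho = 0.38 with *COX1* (adjusted p = 0.28), 0.40 with *ATP8* (0.25) and 0.48 with *ATP6* (0.14). In the 7 strains below the gap, rho of *OLI1* was 0.57 with *COX1*, 0.25 with *ATP8*, 0.79 with *ATP6* and 0.39 with *COB*, and exact permutation tests gave p = 0.20, 0.59, 0.048 and 0.40 before any adjustment.

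**Figure D3:**
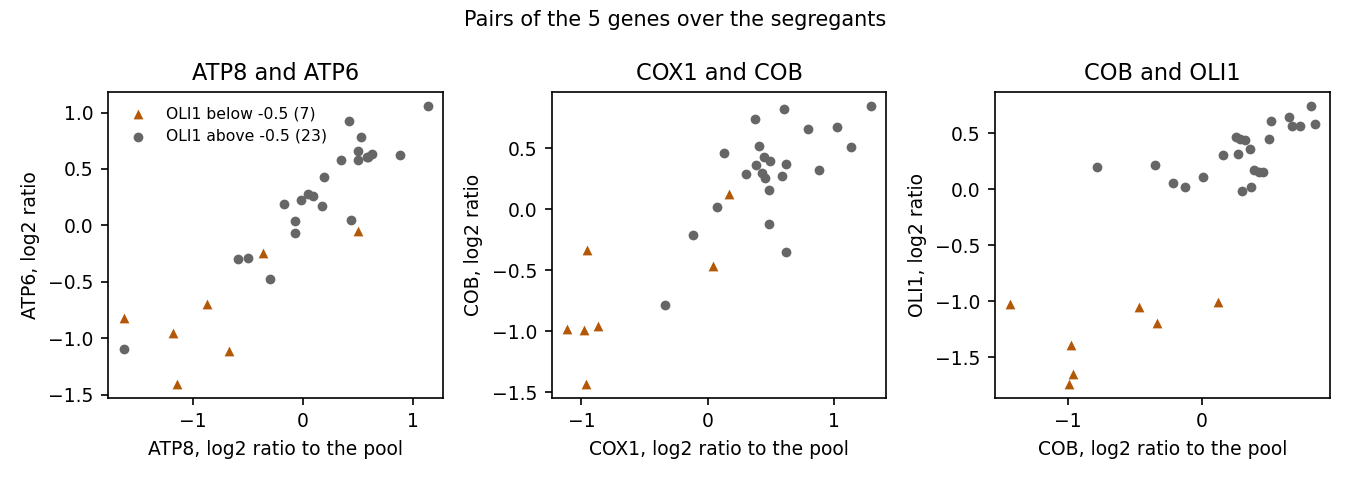
Log2 ratios of 3 pairs of genes, 1 point a segregant, with the 7 strains below the *OLI1* gap as triangles and the other 23 as circles. *ATP8* and *ATP6* rise together over the circles (rho = 0.88), and their correlation within the triangles was not computed. The low triangles draw out the relation of *COX1* and *COB*, and *OLI1* shows the empty range between -1.01 and -0.02.

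The fermentation traits were the CO2 production rate when 50% (R50) and 70% (R70) of the fermentation was done, in g per l and h, and the duration of fermentation (Fd) in h. R50 ran from 0.865 to 2.675 over the segregants with a median of 1.62, R70 from 0.67 to 2.08 with a median of 1.36, and Fd from 61.25 to 149 h with a median of 88 h. The authors' means were 2.33 for R50, 1.49 for R70 and 66 h for Fd in 59A, and 1.04, 0.81 and 128 h in S288C. The parent with the faster and shorter fermentation was the one with the lower *ATP6*, a comparison of only 2 strains.

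Over the segregants, higher *ATP6* went with a lower R50 and R70 and higher *COB* with a lower R70, and no other relation of a member with these 3 traits was called. Of 5 members, 1 was called against R50, 2 against R70 and none against Fd (rho over 0.6 in size and Benjamini-Hochberg adjusted p under 0.05 over 4388 rows). In all rows, 0.752% were called with a negative rho for R50, 1.19% with a negative rho for R70 and 1.09% with a positive rho for Fd. In all, 15 relations of a member with these traits were computed.

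*ATP6* had the largest rho in size of the 4 genes with each trait. With R70, its rho was -0.68 (adjusted p = 0.0028, permutation p = 7e-05) and r = -0.59 (p = 0.00072), which was -0.54 without segregants 1b and 4c, the farthest from the median rate. With R50, rho was -0.605 (adjusted p = 0.030, permutation p = 0.00062) and r = -0.49 (p = 0.0062), or -0.42 without segregants 4c and 14b. With Fd, rho was 0.56 (adjusted p = 0.042, permutation p = 0.0013) and r = 0.45 (p = 0.012), or 0.36 without segregants 22c and 29c, so that the rho stayed under the minimum of 0.6. Its call against R50 was close to that minimum and was lost, at rho = -0.599 to -0.566, when any 1 of segregants 1b, 3a, 4c, 7a, 10b, 16a, 16b, 16c, 18c, 20b, 22c, 23b, 25a and 29c was left out. Against Fd it was called, at rho = 0.63 to 0.65, without segregant 14a, 19c or 22d. The strains with the longest fermentations, 22c at 149 h and 29c at 144.5 h, had *ATP6* at 0.62 and 0.93. The fastest at R70, 4c at 2.08 and 1b at 2.07, had it at -1.10 and -0.30.

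*COB* was called against R70, with rho = -0.62 (adjusted p = 0.013, permutation p = 0.00039) and r = -0.48 (p = 0.0070), or -0.43 without segregants 1b and 4c. Against R50 its rho was -0.59 (adjusted p = 0.036, permutation p = 0.00067) and r = -0.41 (p = 0.025), or -0.31 without segregants 4c and 14b. Against Fd, rho was 0.53 (adjusted p = 0.067, permutation p = 0.0034) and r = 0.32 (p = 0.080), with the same r of 0.32 without segregants 22c and 29c. Its call against R70 was lost when segregant 4c, 24a, 25a or 28b was left out, as rho went to between -0.599 and -0.596. It was also lost with the first spore of each ascus alone, at rho = -0.65 (adjusted p = 0.060). It was called against R50, at rho = -0.67 to -0.60, without segregant 5a, 14a, 19c, 20a, 22a, 22d or 24a, and against Fd, at rho = 0.61, without segregant 22d.

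*ATP8* and *COX1* were not called against any of the 3 traits over all 30 segregants. Against R70, *ATP8* was called at rho = -0.67 to -0.60 without segregant 3a, 5a, 14a, 19c, 22a, 22d or 31b, and *COX1* at rho = -0.60 without segregant 22c. For *ATP8*, rho was -0.59 with R70 (adjusted p = 0.022, permutation p = 0.00079; r = -0.49, p = 0.0067, and -0.38 without segregants 1b and 4c). With R50 it was -0.49 (adjusted p = 0.12, permutation p = 0.0064) with r = -0.38 (p = 0.037, and -0.27 without segregants 4c and 14b). With Fd it was 0.48 (adjusted p = 0.12, permutation p = 0.0085) with r = 0.41 (p = 0.023, and 0.33 without segregants 22c and 29c). The signs were those of *ATP6*. For *COX1*, rho was -0.53 with R70 (adjusted p = 0.049, permutation p = 0.0027; r = -0.39, p = 0.033, and -0.35 without the farthest 2). With R50 it was -0.47 (adjusted p = 0.14, permutation p = 0.0086) with r = -0.29 (p = 0.11, and -0.25 without the farthest 2). With Fd it was 0.32 (adjusted p = 0.37, permutation p = 0.085) with r = 0.19 (p = 0.32, and 0.16 without the farthest 2), the weakest of the 12 relations over 30 segregants. The median rho of the 5 members was -0.49 with R50, -0.59 with R70 and 0.48 with Fd, beside -0.028, -0.011 and 0.026 over all rows. This median takes *OLI1* over all 30 segregants, across its gap.

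**Figure D4:**
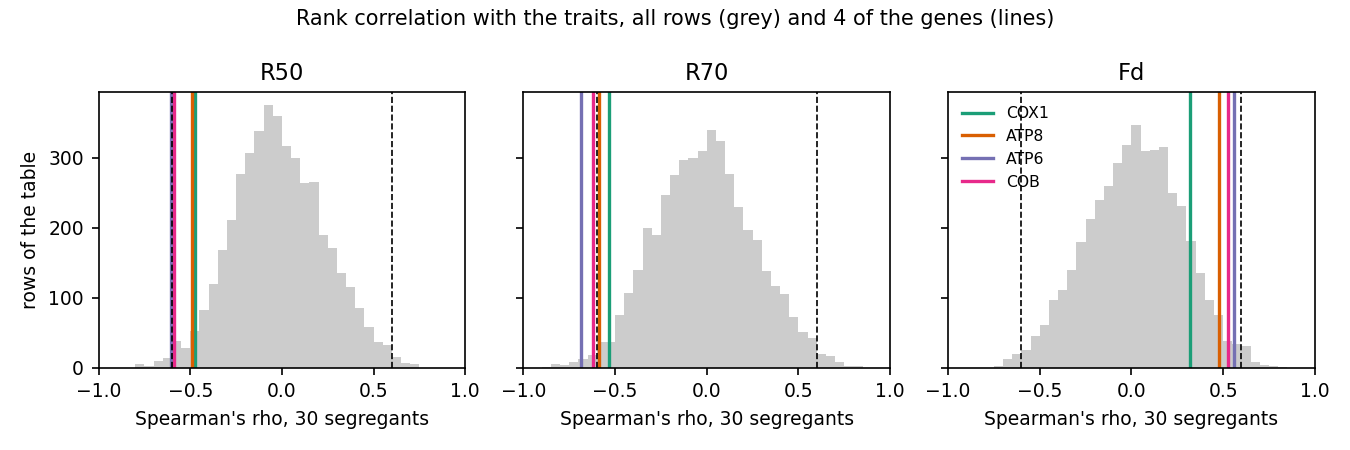
Spearman's rho of each row of the table with R50, R70 and Fd over 30 segregants (grey, number of rows in bins of rho), with *COX1*, *ATP8*, *ATP6* and *COB* as coloured lines and the minimum of 0.6 in size as dashed lines. *ATP6* passes the minimum at -0.605 for R50 and -0.68 for R70, and no line passes it for Fd.

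Of the 5 strains with low values of every gene, 4 lay near the median rate and segregant 28b near the fast end. Their R70 was 1.44 in segregant 5a, 1.40 in 14a, 1.32 in 19c, 1.50 in 20a and 1.99 in 28b, beside the median of 1.36. When the 23 segregants above the *OLI1* gap were taken alone, a choice made after the data were seen, *ATP6* had rho = -0.72 with R70 (adjusted p = 0.0070), -0.68 with R50 (0.016) and 0.73 with Fd (0.0077), with r = -0.73, -0.73 and 0.66. *COB* had rho = 0.66 with Fd (adjusted p = 0.022), -0.62 with R50 (0.047) and -0.58 with R70 (0.057), with r = 0.46, -0.64 and -0.58. *ATP8* had 0.63 with Fd (0.031), -0.64 with R70 (0.026) and -0.54 with R50 (0.091), with r = 0.58, -0.64 and -0.61. *COX1* had rho = -0.55 with R50, -0.47 with R70 and 0.41 with Fd (adjusted p = 0.087, 0.16 and 0.23). For *ATP6* and *ATP8* each rho was larger in size than over 30 segregants, and for *COB* those with R50 and Fd were; whether the 2 sets differ was not tested. Over the whole table, the rows called were also more in the 23 segregants than in all 30, at 173 against 62 for R50, 247 against 102 for R70 and 248 against 83 for Fd. *OLI1* itself had rho = -0.27 with R50, -0.27 with R70 and 0.22 with Fd (adjusted p = 0.52, 0.51 and 0.60), with r = -0.31, -0.27 and 0.13, and r = -0.21, -0.14 and 0.27 without the farthest 2. Its permutation p-values were 0.22, 0.22 and 0.31 for rho and 0.14, 0.21 and 0.56 for r. In the 7 strains below the gap its rho was 0.036 with R50, 0.036 with R70 and -0.25 with Fd (exact permutation p = 0.96, 0.96 and 0.59).

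**Figure D5:**
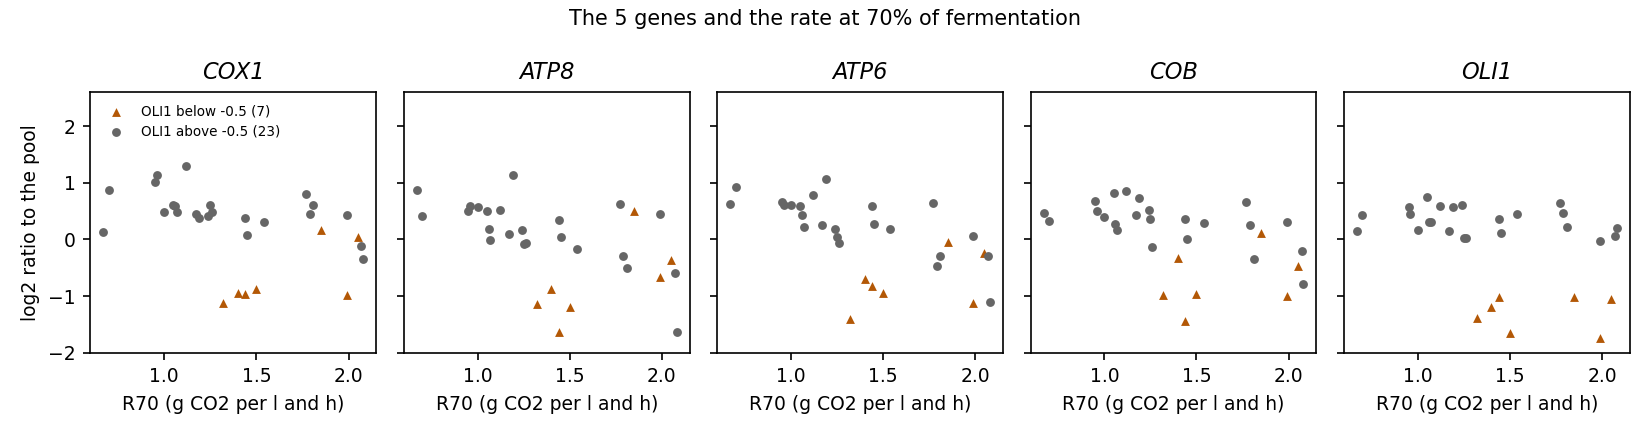
Log2 ratio of each of the 5 genes (vertical axis) against R70 (horizontal axis), 1 point a segregant, with the 7 strains below the *OLI1* gap as triangles. *ATP6* falls along the rate at rho = -0.68 over 30 segregants, while 5 of the triangles sit low between 1.32 and 1.99 in every panel.

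With the other 7 traits of the table no member passed the call, although *COX1* had rho = -0.53 with pyruvate at an adjusted p of 0.034. The same 4 genes had rho between -0.53 and -0.41 with pyruvate, 0.16 and 0.40 with acetate, -0.36 and -0.05 with the maximal rate, and -0.29 and 0.00033 with assimilated nitrogen. The first principal component of all rows outside the mitochondrial genome took 31.1% of the variance and had a rho of 0.50 in size with *ATP8*, 0.46 with *ATP6*, 0.38 with *COB* and 0.077 with *COX1*, and of 0.088 with R70. Given that component, the 6 pairs without *OLI1* were called as before, whereas the call of *COB* with *OLI1* above the gap was lost.

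Of the 11 other rows of the mitochondrial genome, 8 belong to open reading frames in the introns of *COX1* and *COB*, many of which encode splicing factors (maturases), DNA endonucleases or reverse transcriptases. Between the parents, 9 of the 11 passed the test, 5 with a lower level in 59A and 4 with a higher one, beside 30.8% of all rows, and 13.7% with a lower level in 59A. Of the rows in introns of *COX1*, 4 were lower in 59A and 1 was higher. *AI1* averaged -1.53 ± 0.053 in 59A and -0.17 ± 0.14 in S288C, a difference of -1.36 (standard error 0.066, adjusted p = 8.7e-09). *AI3* averaged -0.69 ± 0.10 in 59A and 0.21 ± 0.16 in S288C, and *AI5_ALPHA* -0.53 ± 0.14 in 59A and 0.13 ± 0.079 in S288C (adjusted p = 1.4e-06 and 6.8e-06). The row of *AI4* went the other way, at 1.07 ± 0.10 in 59A and 0.36 ± 0.12 in S288C (adjusted p = 2.9e-06). The *COX1* row itself did not pass the test between the strains, while rows of its introns passed it in both directions. The part of the gene that its oligonucleotide covers is not given in the sources used here. In *COB*, both intron rows were higher in 59A, with *BI2* at 0.48 ± 0.23 in 59A and -0.070 ± 0.13 in S288C, and *BI4* at 0.79 ± 0.16 in 59A and 0.16 ± 0.11 in S288C (differences of 0.55 and 0.63, adjusted p = 0.00084 and 3.5e-05).

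Over the segregants, rho of the 8 intron rows with *COX1* ran from 0.37 in *AI4* and *BI2* to 0.88 in *AI3*, and with *COB* from 0.53 in *AI4* to 0.89 in *AI1* and *AI2*. In 59A cultures *AI2* lay between -2.09 and -1.95, near the bound of -2.32 left by the normalization, and its S288C mean was 0.10 ± 0.18. None of the 30 segregants came as low as 59A, the lowest being segregant 20a at -1.47. In the 5 segregants low in every member, *AI2* was at -1.47 to -0.72, and 10 of the 11 other mitochondrial rows were below the pool in all of these strains. *COX2*, a further mitochondrial subunit of the oxidase, was at -0.77 to -0.41 in them. It averaged -0.21 ± 0.11 in 59A and -0.36 ± 0.065 in S288C (adjusted p = 0.057) and had rho = 0.69 with *COX1* and 0.33 with *ATP8*. The row Q0182 is not annotated by the reference, and the paper lists it as a dubious open reading frame. It had rho = 0.96 with *ATP6*, the highest of any other mitochondrial row with a member. Its own rho was -0.70 with R50, -0.76 with R70 and 0.64 with Fd (adjusted p = 0.0048, 0.00033 and 0.015), and it was the 1 row of the 11 called against the traits. Between the parents it was also lower in 59A, at -0.33 ± 0.14 against 0.067 ± 0.11 in S288C (adjusted p = 0.0010). Q0297, also not annotated, was higher in 59A, at 0.51 ± 0.19 against 0.18 ± 0.12 in S288C (adjusted p = 0.0091).

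Nuclear partners were taken from lists of genes by function, described by counts with no test of a list. Of the nuclear subunits of complex III, 9 of 9 were measured and none passed between the parents, beside 30.8% of all rows. Of complex IV, 5 of 10 were measured, and *COX4* passed with a lower level in 59A, -0.11 ± 0.030 against 0.067 ± 0.066 in S288C (adjusted p = 0.0075). Of the ATP synthase, 15 of 17 were measured, with 4 higher and 2 lower in 59A. Examples are *ATP20*, a subunit that joins the synthase in pairs, at -0.73 ± 0.028 in 59A and -1.09 ± 0.051 in S288C (adjusted p = 2.9e-05), and *ATP16*, the delta subunit, at 0.31 ± 0.22 in 59A and -0.16 ± 0.077 in S288C (adjusted p = 0.0011). The median difference was 0.013 for complex III, -0.029 for complex IV and 0.025 for the ATP synthase, against -0.21 for the 5 mitochondrial genes and 0.012 for all rows. The nuclear subunits also varied less over the segregants, with a median SD of 0.23, 0.33 and 0.29 in these lists. It was 0.66 for the 5 genes and 0.29 for all rows. As the 5 genes also varied more between replicate cultures than the median row, the contrast is not one of strains alone.

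Among nuclear genes that act on mitochondrial RNA, 3 of 8 measured genes of transcription and RNA turnover passed between the parents, beside 30.8% of all rows. *CBP1*, needed for stable *COB* RNA, was higher in 59A, at -1.71 against -2.13 in S288C, and *MTF1*, a mitochondrial transcription factor, was lower, at -0.56 against -0.078 in S288C (adjusted p = 0.00082 and 0.0097). *CBT1*, which acts in the processing of *COB* RNA, was lower too, at -0.44 against 0.055 in S288C. The S288C mean of *CBP1* lay near the bound of -2.32 left by the normalization, which its lowest segregant reached. Of the splicing genes 2 of 5 measured passed, with *MRS1* lower in 59A at -0.61 against -0.14 in S288C. Of the genes for translation and assembly of single mitochondrial products 7 of 14 passed, 6 of them higher in 59A, and of the genes of mitochondrial DNA upkeep 2 of 8, 1 in each direction. Against the mean of the 5 members over the 30 segregants, the median rho of these lists lay between -0.20 and 0.00022, and of the subunit lists between -0.010 and 0.31, beside -0.022 for all rows.

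One nuclear subunit stood out by its likeness to the members. *ATP3*, the gamma subunit of the ATP synthase, had the highest rho of all rows outside the mitochondrial genome with the mean of their standardised values, 0.85 over 30 segregants. It was also the nearest to *ATP6* (rho = 0.89) and to *ATP8* (0.83). With R70 its rho was -0.71 (adjusted p = 0.0014), whereas between the parents it averaged -0.054 ± 0.087 in 59A and -0.079 ± 0.077 in S288C (adjusted p = 0.76). The next by likeness were *SSP120* (0.82), *PLN1*, a lipid droplet protein (0.79), *UGP1*, which makes UDP-glucose (0.78), *FPK1*, a kinase of lipid flippases (0.78), *IVY1* (0.76), *YGP1*, a cell wall glycoprotein (0.76), and *PMP3*, a small plasma membrane protein (0.75). At the other end were *RPS10A*, a protein of the small ribosomal subunit (-0.79), *VBA5* (-0.77), *SAW1*, a DNA repair protein (-0.77), *THI3*, a regulator of thiamine genes (-0.76), and *DBF2*, a kinase of mitotic exit (-0.75). Nearest to *COX1* was *IDP1*, mitochondrial isocitrate dehydrogenase (rho = 0.85), and nearest to *COB* was *UGP1* (0.82). *OLI1*, over the 23 segregants above its gap, was nearest to *RKM4*, a ribosomal lysine methyltransferase, at a rho of only 0.63. These are values over strains that share the pool and, in part, an ascus, and they carry no test.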

How the data were processed

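The authors labelled RNA of each culture with Cy3 and a pool of all 30 segregants with Cy5, made 2 hybridisations on arrays of 70-mer oligonucleotides, and normalized with print-tip loess and quantiles (limma in R 2.9.2); the deposited values are log2 ratios, averaged over both. The deposited traits are means of the authors in their own units. Signal intensities were not used here, and precision rests on the number of arrays. Of 4388 rows, 4104 were named through RefSeq (R64) and 284 kept their names; no coordinates are given, since no build is named. The 5 arrays of 59A were set against the 5 of S288C in limma 3.58.1 (R 4.3.3), on all rows. Correlations, tested on simulated data first, used Python 3.11.15 with scipy 1.17.1. All tests were two-sided. Named genes are the members, other mitochondrial rows, in each list those of smallest p between parents or largest rho with traits, and those most like or unlike the members. The members and lists were chosen with earlier results of these data known. *OLI1* entered the counts of calls, the median rho of the members and the mean of the members over 30 segregants, across its gap. No rho of its own over both its sets is given.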

Additional observations from a re-analysis of the deposited data

Results flagged for a closer look

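Of the 10 sets of 5 parental cultures (5 genes in 2 strains), 2 held a culture far from the others. *ATP6* in 59A had culture 5 at 0.33, and its distance to the next culture was 0.769 of the range of the strain. *COB* in S288C had culture 2 at 0.46, with a distance of 0.756 of the range. About 1 in 20 such sets would be marked by chance if the sets were independent. The 5 genes share their cultures, so the 2 sets marked are not set against that rate. Culture 5 of 59A was also the highest of its strain in *COX1*, *ATP8*, *COB* and *OLI1*, and culture 2 of S288C the highest of its strain in *ATP8*, *COB* and *OLI1*.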

How the results depend on the processing

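No value turned its sign except the difference of *COX1* between the parents, which ran from -0.077 to 0.076 as single cultures were left out. For *ATP6* the difference of -0.55 gave an adjusted p of 0.023 in the methods' t-test, 0.041 under Benjamini-Yekutieli adjustment and 0.010 with the replicate number as a block, so that the members called went to 0 in each, and omissions gave -0.68 to -0.50 with 0 to 1 called. Rows called were 1352, against 860 under Benjamini-Yekutieli and 1202 with the block. The numbers do not pair the cultures (correlations of deviations 0.30, -0.29, -0.04, 0.39 and -0.21, and not every culture was nearest to its own number). With Pearson's r, *ATP6* had -0.49 for R50 and -0.59 for R70, *COB* -0.48 for R70, and 0 members were called for either rate. Without the 2 segregants farthest from the trait's median, *ATP6* had -0.57 for R50 (0 called) and *COB* -0.59 for R70 (1 called). Without the 2 segregants farthest from the median of *COX1*, 19c and 28b, the call of *COX1* with *ATP8* was lost at rho = 0.56. Given assimilated nitrogen, R50 had *COX1* at -0.66 and *COB* at -0.67 called and *ATP6* no longer called at -0.58. The count for R50 was 3, the other being *OLI1* taken across its gap. For R70, *COX1* was called at -0.64 (4 called, with *ATP6*, *COB* and *OLI1*, again across its gap). For Fd, *COB* was called at 0.63 (1 called). Above its gap, *OLI1* given nitrogen was not called, at rho = -0.45 with R50 and -0.39 with R70 (adjusted p = 0.26 and 0.27). With the first spore of each ascus, for R70 *COX1* was called at -0.74 and *COB* was not at -0.65. For Fd, *ATP6* was called at 0.68 (1 called). The call of *COB* with *OLI1* was lost with first spores and given the first component, at 0.63 in each. Benjamini-Yekutieli left 0 members for R50 (*ATP6* at -0.605) and 1 for R70 (*COB* lost at -0.62). With no minimum of rho, *COB* at -0.59 joined for R50 (2 called), *COX1* at -0.53 and *ATP8* at -0.59 for R70 (4 called), and *ATP6* at 0.56 for Fd (1 called). Above the *OLI1* gap, an alternative added after seeing the data, rho for R50 was -0.62 in *COB* (2 called), for R70 -0.64 in *ATP8* and -0.58 in *COB*, for Fd 0.63 in *ATP8*, 0.73 in *ATP6* and 0.66 in *COB* (3 called), and for *COX1* with *ATP8*, *ATP6* and *COB* 0.36, 0.42 and 0.44. Leaving out each segregant gave 0 to 2 members for R50, 1 to 3 for R70 and 0 to 2 for Fd; rho with R50 was -0.68 to -0.57 for *ATP6* and -0.67 to -0.56 for *COB*, with R70 -0.60 to -0.50 for *COX1*, -0.67 to -0.54 for *ATP8* and -0.68 to -0.60 for *COB*, with Fd 0.52 to 0.65 for *ATP6* and 0.49 to 0.61 for *COB*, between *COX1* and *ATP8* 0.60 to 0.70 and between *COB* and *OLI1* 0.58 to 0.68. Rows called for R50 were 62, against 18 (first spores), 152 (nitrogen), 18 (Benjamini-Yekutieli), 173 (above the gap) and 118 (no minimum). For R70 they were 102, against 283 (nitrogen), 55 (Benjamini-Yekutieli), 247 (above the gap) and 215 (no minimum), and for Fd 83, against 43 (Pearson), 45 (without the farthest 2), 129 (nitrogen), 8 (Benjamini-Yekutieli), 248 (above the gap) and 135 (no minimum). Centring arrays on the median changed no call of a member or pair, and gave 1361 rows called between the parents, 63 for R50, 101 for R70 and 78 for Fd. The cause of these changes was not tested. Each segregant has 1 array, and no signal over background was used, so that the error of a single segregant is unknown.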
